A study of Mus musculus with 6 samples.

Results

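Smad3 and Skil are a pair of genes of the transforming growth factor beta (TGF-beta) pathway, and they were taken as every entry of the deposited expression table whose RefSeq accession maps to either gene. That gave 2 entries, 1 per gene, among 1037 transcripts and 841 matched genes. The data are RNA sequencing of primary CD8+ T cells from the spleen of wildtype mice, in 2 groups of 3 samples. One group was given the anthracycline daunorubicin (DNR), a DNA-intercalating poison of topoisomerase II, for 2 h, and the other was given the solvent dimethyl sulfoxide (DMSO) for the same time. No genetic change separates the groups, and the labels give neither the drug concentration nor the age of the mice. Samples within a group are labelled as biological replicates, but the labels do not say whether each came from its own mouse, so the p-values below measure the spread between these samples, which may be technical.

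TGF-beta binds a pair of receptor kinases at the cell surface, which phosphorylate Smad2 and Smad3. Phosphorylated Smad3 joins Smad4, enters the nucleus and binds DNA at target genes. Skil encodes SnoN, a nuclear protein related to Ski that binds Smad complexes and recruits corepressors, and Skil is itself a gene that TGF-beta signalling induces, which makes SnoN a negative feedback regulator. In CD8+ T cells the pathway is known for restraining activation and effector functions and for the formation of tissue-resident memory cells.

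Both entries were lower in DNR. This difference between DMSO and DNR is what the pair was chosen on, so the values of Smad3 and Skil are given as a description, with no test. The table is named as the matrix of a heatmap of these groups, and its transcripts above the lowest levels almost all differ. Of the 388 transcripts with at least 1 FPKM (fragments per kilobase of transcript, adjusted for library depth) in at least 3 samples, 99.7% passed the test between the groups and 56.7% were lower in DNR (limma, adjusted p under 0.05). Without that level filter, 242 of the 1037 transcripts were called higher and 324 lower. That both entries were lower is therefore read against tested transcripts of which most were. As nearly every tested transcript passed, the adjusted p-values of single transcripts below are descriptions and do not set those transcripts apart. Every direction depends on how the column codes were read, which is given with the processing.

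The sequence that sets the listed Skil transcript apart is shown first, because only 1 of the 4 RefSeq transcripts of the gene is in the table. Skil lies on chromosome 3 (GRCm38, 31095058 to 31122923, plus strand). The listed transcript, NM_011386, has 7 exons and 675 codons in GENCODE vM21. It uses a longer form of exon 4 than NM_001039090 and NM_001271772, the other RefSeq transcripts matched there. The added stretch is chr3:31113503-31113640, 138 bases of coding sequence or 46 codons with 0 bases over, so the reading frame is the same on both sides of it. It is printed below in capitals with 20 bases of shared coding sequence on each side, followed by the direct junction of the other transcripts, 5′ to 3′.
Skil NM_011386: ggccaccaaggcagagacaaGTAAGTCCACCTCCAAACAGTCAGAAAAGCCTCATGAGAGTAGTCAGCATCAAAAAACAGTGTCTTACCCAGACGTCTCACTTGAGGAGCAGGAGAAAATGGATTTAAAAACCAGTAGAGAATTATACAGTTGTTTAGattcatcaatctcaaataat
Skil NM_001039090 and NM_001271772: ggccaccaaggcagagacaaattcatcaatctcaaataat

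Where the capitals begin, the shorter transcripts begin their intron. Of the 6717 bases of NM_011386, 142 are in neither of the other 2 transcripts, which is 2.11% of its length: the 138 printed in capitals and 4 at its 3′ end. The remaining bases are shared with at least 1 other transcript of the gene. The FPKM of NM_011386 is thus an estimate for 1 form of Skil and not for the gene, and the transcripts without the stretch have no value in the table. The remaining RefSeq transcript, a predicted model, was not analysed here.

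**Figure D1:**
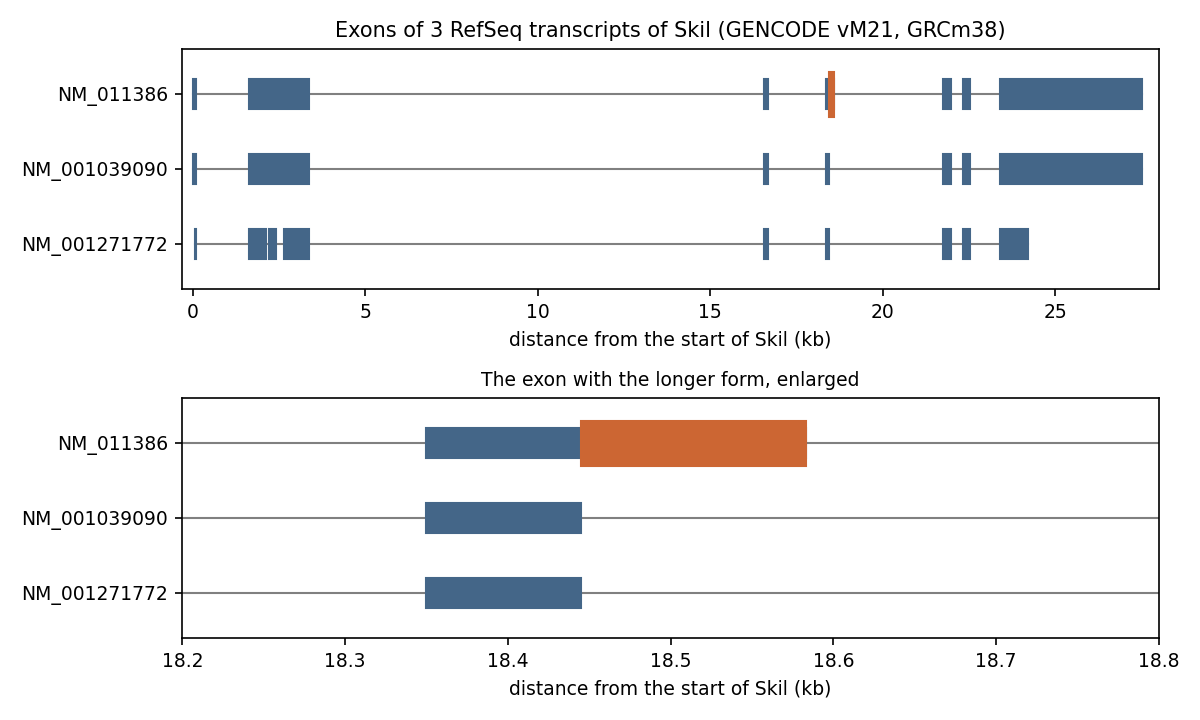
Exons (boxes) and introns (lines) of 3 RefSeq transcripts of Skil, by distance in kb from the start of the gene, whole above and enlarged around exon 4 of NM_011386 below. The orange box is the stretch of 138 bases found in the listed transcript NM_011386 and not in the other 2.

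In DMSO, Skil NM_011386 had 3.26, 3.44 and 4 FPKM. In DNR, it had 0.01, 0 and 0 FPKM. The DMSO samples lay close together, with a mean of 3.57 ± 0.39 FPKM (SD, n = 3), and every DNR sample was at or next to 0. The groups did not overlap, and 3.25 FPKM separated the lowest DMSO sample from the highest DNR sample. On the log2(FPKM + 1) scale the difference was -2.18 ± 0.11 (SE of the limma fit). Its size depends on the constant added, since with 0.1 in place of 1 it was -5.15, and no fold is given for a group in which most samples are listed at 0. The entry passed the level filter only through its DMSO samples. Zeros in such a table may be failed estimates, and without read counts the depth behind them is unknown.

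Skil shared this pattern with many entries of the table. In all, 129 transcripts were above 0 in every DMSO sample and at most 0.01 FPKM in every DNR sample, and 120 showed the opposite. Skil was among the higher ones: the median DMSO level of the 129 was 0.80 FPKM, and 3 of them stood above Skil. Ordered by change, Skil was at place 4 from the largest fall among the 388 tested transcripts. The named entries with larger falls were of Unc50 and Strada, a pseudokinase gene, both listed at 0 in every DNR sample. The Strada transcript was at 4.46, 4.14 and 3.85 FPKM in DMSO, a difference of -2.36 on the same scale. Next below Skil came Ggta1, which encodes a glycosyltransferase of the alpha-gal epitope, from 2.34, 3.81 and 3.74 FPKM in DMSO to 0.04, 0.05 and 0 in DNR, and a transcript of Tmem19. Their differences were -2.04 and -2.02. Like Skil, these 4 transcripts passed the level filter only through DMSO, and no test is given for them. For 3 of the 4 genes another tested transcript went the opposite way. Unc50 NM_001356528 had 8.22, 8.32 and 10.42 FPKM in DMSO against 20.94, 19.26 and 17.36 in DNR, and Strada XM_006534296 had 3.70, 2.79 and 4.34 against 7, 7.60 and 10.94. Tmem19 XM_030245231 was listed at 0 throughout DMSO and had 2.89, 2.10 and 1.45 FPKM in DNR. For Ggta1, another transcript was above 0 in 1 DNR sample. A level at or next to 0 for 1 transcript of Unc50, Strada and Tmem19 was therefore not a level of 0 for the gene, and for Skil the table holds no other transcript to compare.

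Smad3, the receptor-activated Smad, is on chromosome 9 (GRCm38, 63646766 to 63757994, minus strand). The listed transcript is NM_016769, with 9 exons, 5090 bases and 425 codons, and it is 1 of 3 RefSeq transcripts of the gene. In DMSO, Smad3 had 23.18, 19.28 and 23.90 FPKM. In DNR, it had 16.12, 12.55 and 16.48 FPKM. Every DNR sample was below every DMSO sample, by 2.80 FPKM at the closest, and the sample numbered 2 was the lowest of its group in both. The DMSO mean was 22.1 ± 2.49 FPKM and the DNR mean 15.1 ± 2.17 (SD, n = 3), which is 68.0% of the former. The difference was -0.53 ± 0.12 on the log2(FPKM + 1) scale (SE of the limma fit). With all samples brought to the same median (a common median), which raises DNR by 0.18 relative to DMSO, it was -0.35.

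**Figure D2:**
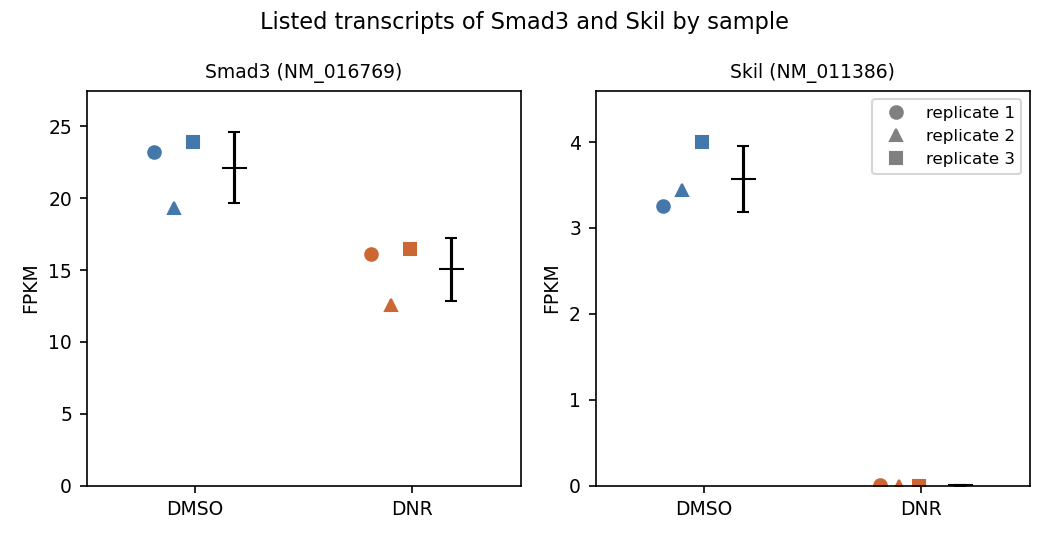
FPKM of the listed transcripts of Smad3 (left) and Skil (right) in the 3 DMSO and 3 DNR samples; symbols are replicates, and the horizontal mark with its bar is the mean ± SD. Smad3 was between 19.28 and 23.90 FPKM in DMSO and between 12.55 and 16.48 in DNR, and Skil was at or next to 0 in DNR.

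The pair differed in level and in kind of pattern. Per length, the Smad3 transcript stood higher than the Skil transcript in both groups, at 22.1 against 3.57 FPKM in DMSO. Smad3 kept most of its level in DNR and spread similarly in both groups, with a coefficient of variation of 11.2% in DMSO and 14.4% in DNR. In bulk samples such as these, fewer cells of a type and less RNA per cell cannot be told apart.

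Smad3 lay in the middle of the falls in the table. It was at place 97 from the largest fall, where 221 tested transcripts were below 0 with a median of -0.44. Among transcripts of similar abundance it stood further out. Of 117 others whose mean FPKM was within 2 times that of Smad3, 78 were lower in DNR and 13 had a larger fall, and the median of those below 0 was -0.34. The nearest entries in the ordering were transcripts of Setd5 and Mycbp2, a ubiquitin ligase gene, and then Ppp1r10 and Usp6nl. Ppp1r10, which encodes a regulatory subunit of protein phosphatase 1, had values near those of Smad3, from 20.23, 19.91 and 22.89 FPKM in DMSO to 13.02, 15.47 and 14.64 in DNR (-0.52 ± 0.09, SE of the limma fit). The nearest entries were picked by their change in this contrast, so no test is given for them.

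**Figure D3:**
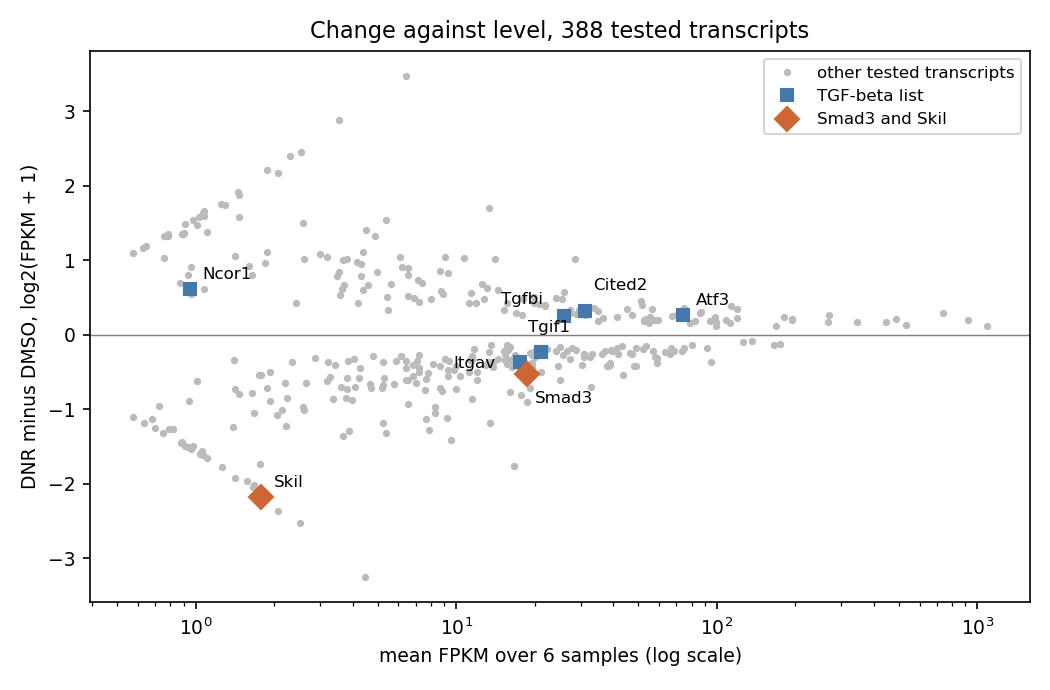
Difference between DNR and DMSO on the log2(FPKM + 1) scale against the mean FPKM over 6 samples (log scale), for the 388 tested transcripts. Smad3, at -0.53, lies at the outer part of the falls of its abundance, and Skil, at -2.18, lies on the lower edge formed by transcripts at or next to 0 in DNR.

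Genomic span moved with direction in the table, and the pair differ in it. Smad3 spans 111 kb and Skil 27.9 kb. Of 79 tested transcripts whose gene spans 100 kb or more, 65 were lower in DNR, which is 82.3%. From 10 to below 100 kb, where Skil falls, 142 of 243 were lower, which is 58.4%. Under 10 kb, 6 of 49 were lower, which is 12.2%. The part of gene span in the lower levels of Smad3 and Skil was not tested.

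**Figure D4:**
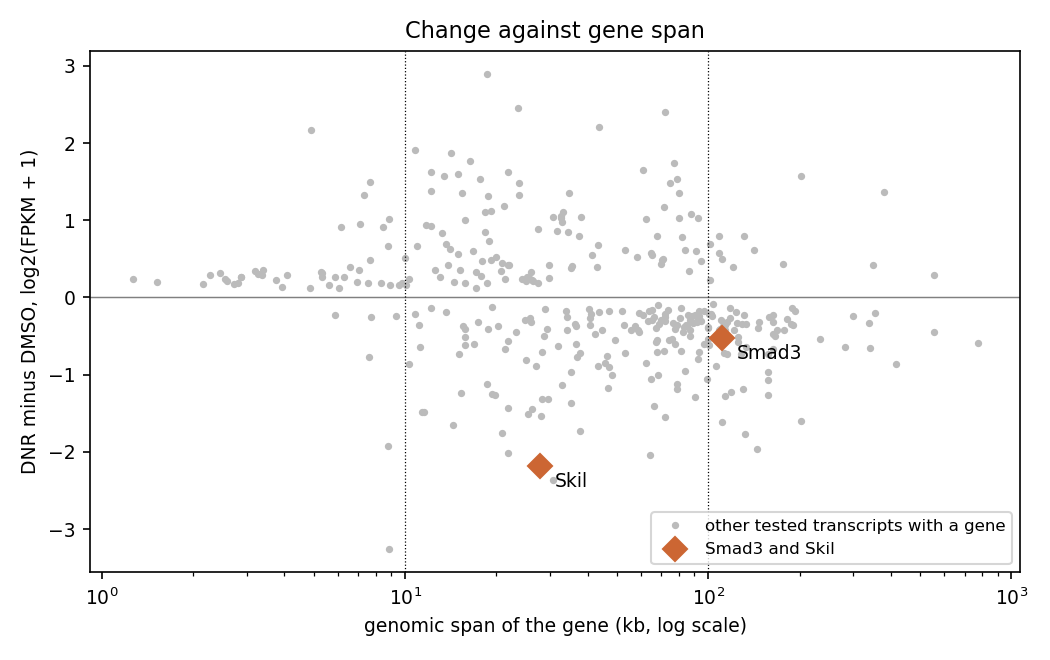
Difference between DNR and DMSO on the log2(FPKM + 1) scale against the genomic span of the gene in kb (log scale), for tested transcripts with a matched gene; dotted lines mark 10 and 100 kb. Smad3 lies just above 100 kb, where 82.3% of transcripts were lower in DNR, and Skil between the lines, where 58.4% were.

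The rest of the pathway was taken from a list of 95 genes in 6 roles, of which Smad3, Skil and 10 others are in the table. Most of the pathway, including Tgfb1, both TGF-beta receptor genes Tgfbr1 and Tgfbr2, Smad2 and Smad7, therefore has no value here. The 10 other genes have 11 transcripts, of which 6 were tested; 4 rose and 2 fell in DNR (limma, adjusted p under 0.05). One of the rises, Ncor1, passed the level filter only through DNR, and without it, a choice made after the data were seen, 3 rose and 2 fell, with a median change of 0.25. With it the median change was 0.26, beside -0.22 over all 388 tested transcripts, of which 43.0% were higher and 56.7% lower. With 6 transcripts, and 99.7% of all tested transcripts called, these counts show direction and size only. With a common median, or quantile normalized, the rises of Cited2, Tgfbi and Atf3 passed and the 2 falls did not.

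On the ligand side, the only listed gene was Itgav, which encodes the integrin subunit alpha-V that takes part in releasing latent TGF-beta. It fell from 21.46, 18.39 and 19.83 FPKM in DMSO to 16.58, 14.23 and 14.95 in DNR, with no overlap (-0.36 ± 0.08, SE; limma, adjusted p = 0.0054). With a common median its change was -0.18 (limma, adjusted p = 0.095). Among the receptor genes only Eng, the gene of the co-receptor endoglin, was listed, with 0.22, 0.60 and 0.40 FPKM in DMSO and 0 throughout DNR, below the level for testing.

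Among the Smads, the only other listed entry was a predicted transcript of Smad4, the common partner of the receptor-activated Smads. It was listed at 0 in all DMSO samples and at 1.27, 0.67 and 0.45 FPKM in DNR, and was not tested. That entry went the opposite way to Smad3. Like the Skil value, it is for 1 transcript and not for the gene.

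Among the inhibitors and corepressors of Smads, where Skil belongs, 3 transcripts of other genes were tested. Tgif1 encodes a homeodomain protein that, like SnoN, recruits corepressors to Smad complexes. Its predicted transcript fell from 23.72, 22.54 and 22.32 FPKM to 20.35, 19.07 and 18.38 (-0.24 ± 0.06, SE; limma, adjusted p = 0.0063), and with a common median the change was -0.05 (limma, adjusted p = 0.52). Cited2, a transcriptional regulator that binds the coactivators CBP and p300, rose from 29.62, 27.19 and 26.25 FPKM to 34.06, 34.17 and 36.13 (0.32 ± 0.06, SE; limma, adjusted p = 0.0028). Cited2 was listed with the inhibitors, although it can also act with Smads as a coactivator. A predicted transcript of Ncor1, a nuclear corepressor that SnoN recruits, had 0.71, 0.53 and 0.38 FPKM in DMSO against 1.19, 1.72 and 1.16 in DNR. It reached 1 FPKM in DNR alone, so no test is given for it.

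The other entries of this role, for Wwp1 and Sin3a, did not reach the level for testing, and none was above 0 in DNR. Wwp1 was among the 129 transcripts above 0 throughout DMSO and at most 0.01 FPKM throughout DNR, beside 120 with the opposite pattern. Of the 3 tested transcripts of other genes in the role, 2 were higher in DNR and 1 was lower. No direction of the role is therefore read from the untested entries. Wwp1, a ubiquitin ligase that acts on Smads and the receptor, was at 0.20, 0.42 and 0.38 FPKM in DMSO. For Sin3a, the scaffold of a histone deacetylase complex, 1 transcript was at 1.76, 1.42 and 0 FPKM in DMSO and the other at 0, 0 and 2.37. The DMSO sample that had 0 for the former was the only sample above 0 for the latter, so each of the 3 DMSO samples held 1 of the 2 Sin3a transcripts.

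Of the 18 targets in the pathway list only 2 are in the table, and both rose. Tgfbi, named for its induction by TGF-beta, rose from 23.41, 23.77 and 23.41 FPKM to 27.23, 27.72 and 29.49 (0.25 ± 0.05, SE; limma, adjusted p = 0.0035). Atf3, a stress-induced factor gene that TGF-beta can also induce, rose from 65.72, 72.25 and 64.56 FPKM to 77.15, 81.66 and 85.09 (0.27 ± 0.06, SE; limma, adjusted p = 0.0044). Both differed from Smad3 and Skil in direction, as did the 43.0% of all tested transcripts that were higher in DNR. Tgfbi is also expressed by monocytes and macrophages. Of 6 fixed markers of those cells only Csf1r is in the table, and it was between 58.5 and 63.2 FPKM in DMSO and between 69.6 and 79.1 in DNR. Its part in the rise of Tgfbi was not tested. The summed level of 2 listed transcripts of Itgax, of the 4 dendritic cell markers, was 0.96 to 1.23 FPKM in DMSO and 1.14 to 1.51 in DNR. Of 7 B cell markers, Ebf1 and Spib are listed, with 3 transcripts that summed to between 0 and 2.27 FPKM in DMSO and between 1.88 and 5.97 in DNR. None of the 8 T cell or 2 CD8 markers is in the table, so the labelled cell type could not be checked with them. Csf1r stood above Smad3 in every sample, and whether the samples held monocytes or macrophages was not tested.

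**Figure D5:**
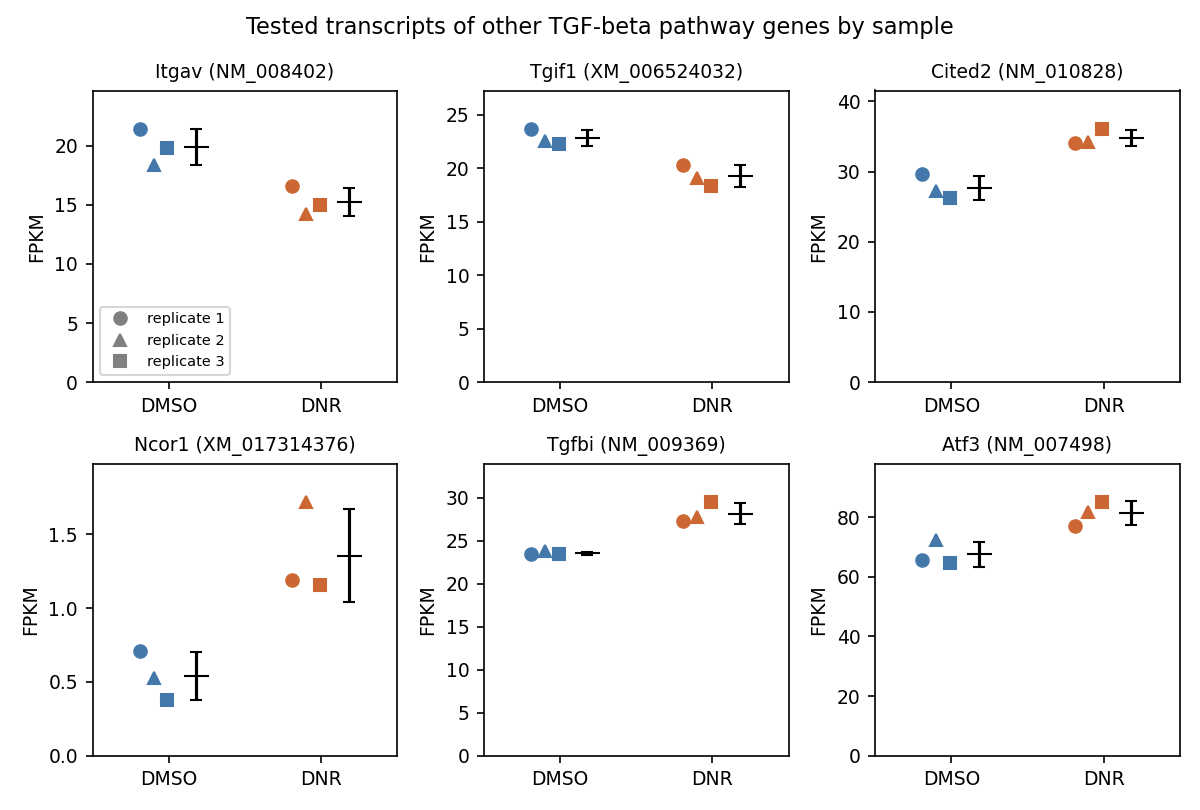
FPKM of the 6 tested transcripts of other genes of the pathway list in the 3 DMSO and 3 DNR samples; symbols are replicates, and the horizontal mark with its bar is the mean ± SD. Itgav and Tgif1 were lower in every DNR sample, and Cited2, Ncor1, Tgfbi and Atf3 were higher in every DNR sample.

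Transcripts with a pattern like that of Smad3 were sought by Pearson correlation over the 6 samples, among 317 tested transcripts of other genes that were above 0 throughout. All points share the treatment groups, and the median correlation was 0.68, so these values are descriptions. The 4 most alike were of Gga3, an adaptor of Golgi sorting (r = 0.992), Stag2, a cohesin subunit (r = 0.984), Phip (r = 0.983) and Ppp1r16b (r = 0.980). Gga3 went from 15.78, 14.24 and 15.52 FPKM to 12.34, 10.25 and 12.20 in DNR, and its fall did not pass with a common median (-0.18; limma, adjusted p = 0.10) or with quantile normalization (-0.17; limma, adjusted p = 0.076). Stag2 went from 11.03, 7.83 and 10.46 FPKM to 5.80, 4.59 and 5.91. As for Smad3, the sample numbered 2 was the lowest of each group in Gga3, Stag2, Phip and Ppp1r16b. With the group means removed, their correlations with Smad3 were 0.92 to 0.97. These 4 were picked for likeness over the same 6 samples, so both observations follow in part from that choice.

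For Skil the highest correlations were with Sema4d (0.993), Myo1e (0.991), Bicdl1 (0.988) and Pias1 (0.988), out of 318 transcripts with a median of 0.86. Since Skil had in effect a high level in one group and none in the other, these are transcripts whose spread within the groups is small beside their difference. Bicdl1 had 1.30, 1.19 and 1.34 FPKM in DMSO against 0.07, 0.21 and 0.24 in DNR. It passed the level filter only through DMSO. For Sema4d, the gene of a semaphorin of lymphocytes, the transcript alike was NM_013660, with 43.57, 43.38 and 43.34 FPKM in DMSO against 31.53, 33.02 and 31.90 in DNR. Another tested transcript of Sema4d, NM_001281880, was higher in DNR, with 21.19, 19.87 and 20.45 FPKM against 30.57, 32.04 and 30.45. Pias1, which encodes a SUMO ligase, went from 20.66, 20.56 and 21.34 FPKM to 17.73, 17.52 and 16.99. With the group means removed the correlations ranged from -0.14 to 0.78. The falls of Pias1 and Myo1e did not hold with a common median, at -0.06 and 0.01 (limma, adjusted p = 0.43 and 0.90).

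The region before the start of Smad3 was searched for the core letters that Smad3 and Smad4 bind, because Smad proteins act on many genes of their own pathway. In the RefSeq promoter table of GRCm38.p6 the 250 bases upstream of the start are chr9:63757995-63758244 on the minus strand. They are printed 5′ to 3′ with matches to AGAC or GTCT, which are the same motif on the 2 strands, in capitals.
Smad3 upstream: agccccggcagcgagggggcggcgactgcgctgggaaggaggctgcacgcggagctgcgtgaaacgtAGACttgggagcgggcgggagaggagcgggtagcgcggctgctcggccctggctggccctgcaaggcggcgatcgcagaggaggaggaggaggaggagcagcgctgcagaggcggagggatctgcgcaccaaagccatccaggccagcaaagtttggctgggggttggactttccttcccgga
The window held 1 match, beginning 183 bases before the start. Of 32851 promoter windows of this length, 82.9% held at least 1, with a median of 2. The longer form CAGAC or GTCTG had 0 matches here and was present in 42.2% of the windows. The Smad3 window is 69.2% G and C, against a median of 52.4%. A match of letters is a description and not a binding site.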

How the data were processed

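Per the labels' protocols, sequencing libraries were prepared from total RNA using a SMARTER mRNA kit. The authors deposited 1 table of log2(FPKM + 1) for 1037 transcripts; per the file headers the values are FPKM, and the log2 scale was read from the values, since raising 2 to them and subtracting 1 gave 2 decimals in 100% of cells (within 1e-06). The builds were GRCm38 and mm10, per the submitters' processing notes; the aligner, quantifier and listing rule were not given in the sources used here. Column codes with O match the ends of the DMSO descriptions, and those with D were given to DNR by elimination. Depth is unknown; FPKM summed to 13501 to 13669 in DMSO and 14023 to 14395 in DNR over the table.

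Accessions were matched, versions removed, to RefSeq genes (GRCm38.p6) (1001 transcripts, 841 genes). The code of the fit was run on simulated data in which many transcripts had no change, unlike this table, so that run does not bear on the calls here. Transcripts of at least 1 FPKM in 3 samples were compared with limma 3.58.1 in R 4.3.3 (eBayes with trend, two-sided, Benjamini-Hochberg over all 388, threshold 0.05). Every SE is from this fit, whose variances are drawn toward those of other transcripts of similar level. Exon structures and Skil sequences are from GENCODE vM21. Named are both genes, tested pathway genes, the 4 most correlated transcripts and the 2 named transcripts on each side in the ordering of change. Alternatives were no filter, a constant of 0.1, a common median, quantile normalization, a replicate block, gene sums, predicted accessions left out, and each sample left out. The members and lists were chosen with earlier results of these data known.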

Additional observations from a re-analysis of the deposited data

How the results depend on the processing

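Smad3 and Skil were lower in DNR under the alternatives run for them, which is a description, as the pair was chosen on this contrast. With 1 entry each, neither predicted, removing the level filter, summing by gene or leaving out predicted entries could not change their differences. Skil also passed the level filter only through DMSO, so that its difference kept its sign is not read as a result. The Smad3 difference was -0.35 with a common median and -0.62 to -0.41 when a sample was left out; that of Skil was -2.00 with a common median, -5.15 with a constant of 0.1 and -2.23 to -2.12 when a sample was left out. Of all tested transcripts 106 were called lower with a common median in place of 220, so that 61.2% of calls were higher and 38.8% lower, against 43.2% and 56.8% as deposited. Without a level filter 5 of 11 other pathway transcripts were called higher and 4 lower, beside 242 and 324 of all 1037. As gene sums, 4 of 7 were called higher and 3 lower, beside 134 and 180 of all 346. With a common median or quantile normalization 4 of 6 were called higher and 0 lower, where quantile normalization gave 149 and 171 of all 388. Itgav and Tgif1 did not pass there (limma, adjusted p = 0.095 and 0.52 with a common median, 0.088 and 0.17 with quantile normalization). Both scalings were estimated on this selected table. Of the 22 other transcripts with a named result, 5 were no longer called with quantile normalization and 6 with a common median. Among these was Myo1e, at -0.18 as deposited and at 0.01 with a common median, a setting that raises every difference by 0.18. The 22 include Ncor1, Unc50, Strada, Ggta1, Tmem19 and Bicdl1, which passed the level filter only through 1 group. That their calls held is therefore not read as a result. The replicate block left 167 higher and 218 lower, with Smad3 at -0.53 and Skil at -2.18; same-numbered samples correlated at -0.05, 0.05 and 0.04 in their deviations from the group means, so the numbers were not taken as pairs, and not every sample correlated best with its own number. With 3 samples a group and no read totals, the precision of the low values cannot be given.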
